A study of Homo sapiens with 6 samples.

Results

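The CHRM3 locus was followed in open-chromatin profiles of 22Rv1, a long-established line of human prostate cancer cells. It was defined as a window of 1200 kb on chromosome 1 (hg19, 1:239000000-240200000), with CHRM3 at about 1:239549865-240078750. The window was chosen by its position with earlier results of these same peak lists known, so its losses of peaks are given as a description and without a test. Peaks of the 6 libraries were joined into 1 region wherever they overlapped by at least 1 bp. This gave 119 regions in the window, of 167726 on the autosomes and X. At the left edge, the first region inside, 1:239024681-239025244, had a peak in all 6 libraries with folds of 3.65 to 7.57, and the nearest one outside, 1:238972840-238974184, also had a peak in all 6, with folds of 9.66 to 15.5. At the right edge, the last region inside, 1:240190288-240190650, was held by all 6 libraries with folds of 7.02 to 11.6, while the next one outside, 1:240209387-240209614, was held by 2 libraries, with folds of 4.18 and 3.49.

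The assay was ATAC-seq, in which a transposase cuts and tags accessible DNA. All 6 libraries carry the label FOXA1_dTAG, at 0 h, 1 h or 24 h, with 2 libraries at each time. A dTAG is fused to a protein so that an added small molecule can send that protein to the cell's degradation machinery. The tag is thus shared by every group, the 0 h libraries included, and the labels give neither the molecule, nor its dose, nor whether the line is 1 clone. No library of untagged cells was among the 6. FOXA1 protein was not measured in these files, and the cell type was not checked against marker genes, because no hg19 annotation was used here.

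CHRM3 encodes the muscarinic M3 acetylcholine receptor, a receptor of the cell surface that couples to Gq proteins and raises intracellular calcium through phospholipase C. It is known for contraction of smooth muscle and secretion from glands, and the prostate expresses it as well. FOXA1 is a forkhead pioneer factor of luminal prostate cells: it binds its sites in closed chromatin, opens them, and lets factors such as the androgen receptor bind there. In RefSeq (GRCh38.p14) the nearest protein-coding genes are ZP4 before CHRM3 and FMN2 after it, and the non-coding genes CHRM3-AS1, CHRM3-AS2, LOC105373225 and LOC124904567 lie within it.

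The promoter is shown because the region at the gene's start is the widest of the locus and had a peak in every library. RefSeq places the 250 bases before the start of CHRM3 at chr1:239386318-239386567 of GRCh38.p14, on the + strand. That position was not transferred to hg19. CG dinucleotides are in capitals:
CHRM3: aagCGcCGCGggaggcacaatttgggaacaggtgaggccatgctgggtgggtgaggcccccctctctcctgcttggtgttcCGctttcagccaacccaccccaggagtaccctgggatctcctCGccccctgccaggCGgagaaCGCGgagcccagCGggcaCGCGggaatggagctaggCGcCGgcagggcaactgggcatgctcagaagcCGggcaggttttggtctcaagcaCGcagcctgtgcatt

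These bases hold 15 CG dinucleotides. Over the 300 bases that reach 50 bases past the start, the GC content was 66% and the number of CG dinucleotides 18, while the medians over 35116 RefSeq promoters were 58.7% and 14. On both strands of this window the forkhead cores TGTTTAC and TGTTTGC were each found 0 times, and so was the androgen receptor core AGAACA. Of all promoters of this length, 3.42%, 3.89% and 14.8% hold them. The sequences of the peaks were not used here.

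The whole lists, on the autosomes and X, numbered 118259 and 125396 peaks at 0 h, 110661 and 117942 at 1 h, then 101755 and 114362 at 24 h. The window had 74 and 86 peaks at 0 h, 66 and 75 at 1 h, then 60 and 65 at 24 h. The means were 80 ± 8.49, 70.5 ± 6.36 and 62.5 ± 3.54 (SD, n = 2 each). All values at 24 h lay below those at 0 h, while 1h replicate 2, with 75 peaks, lay above 0h replicate 1. The window's peaks covered 35.2 and 29.7 kb at 0 h, 29.5 and 30.5 kb at 1 h, then 22.6 and 24.7 kb at 24 h. A relative depth, recovered from each list's background, was 10.4 and 8.24 tags per kb at 0 h, 8.14 and 8.62 at 1 h, then 7.33 and 7.04 at 24 h. Mean depth therefore fell along with the mean number of peaks, and its part in the counts that follow was not tested. Whether replicates are separate cultures is not in the labels, so their spread may be technical. With 2 libraries against 2, an exact permutation test cannot give a p below 0.333.

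Both 0 h libraries had a peak in 62 of the 119 regions. Of these 62, 40 (64.5%) had a peak in all 6 libraries, and the same share over all regions of the series was 73.1%. A further 33 of the 119 regions were held by a single library, with folds of 2.74 to 6.27. The fold is the authors' own value, the pileup of fragments at the peak's summit over the local background.

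The locus lost open regions at both later times. Lost means that both earlier libraries had a peak and both later ones had none, and gained means the reverse. Between 0 h and 1 h, 11 of 62 regions (17.7%) were lost, and the share over the series was 7.48%. Between 0 h and 24 h, 16 of 62 (25.8%) were lost, and the share over the series was 13.1%. Without 0h replicate 1 the counts of lost regions were 20 at 1 h and 28 at 24 h, and without 0h replicate 2 they were 17 and 24, since a region then needed only 1 peak at 0 h. The base of these counts is no longer the 62 regions, and no matching share over the series is given. Because the window was chosen with such losses known, nothing is read from the difference between its shares and those of the series.

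The regions lost at 1 h were mostly still without a peak at 24 h. Of the 11, 9 had no peak in any of the 4 later libraries, and each of the other 2 regained one in a single 24 h library. Of the 16 regions lost at 24 h, 9 lacked any peak at 1 h, 3 were held by one 1 h library, and 4 by both. The matching shares over the series were not worked out, so nothing particular to the locus is read from these counts. The regions lost at 24 h had median folds of 5.98 and 6.04 in the 0 h libraries, and the 40 regions in all 6 libraries 7.96 and 8.18. Over the whole series the same medians were 4.96 and 5.22 for lost regions and 8.02 and 8.88 for those in all 6 libraries. Presence in all 6 libraries itself selects strong peaks, so this contrast is partly set by the definitions.

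**Figure D1:**
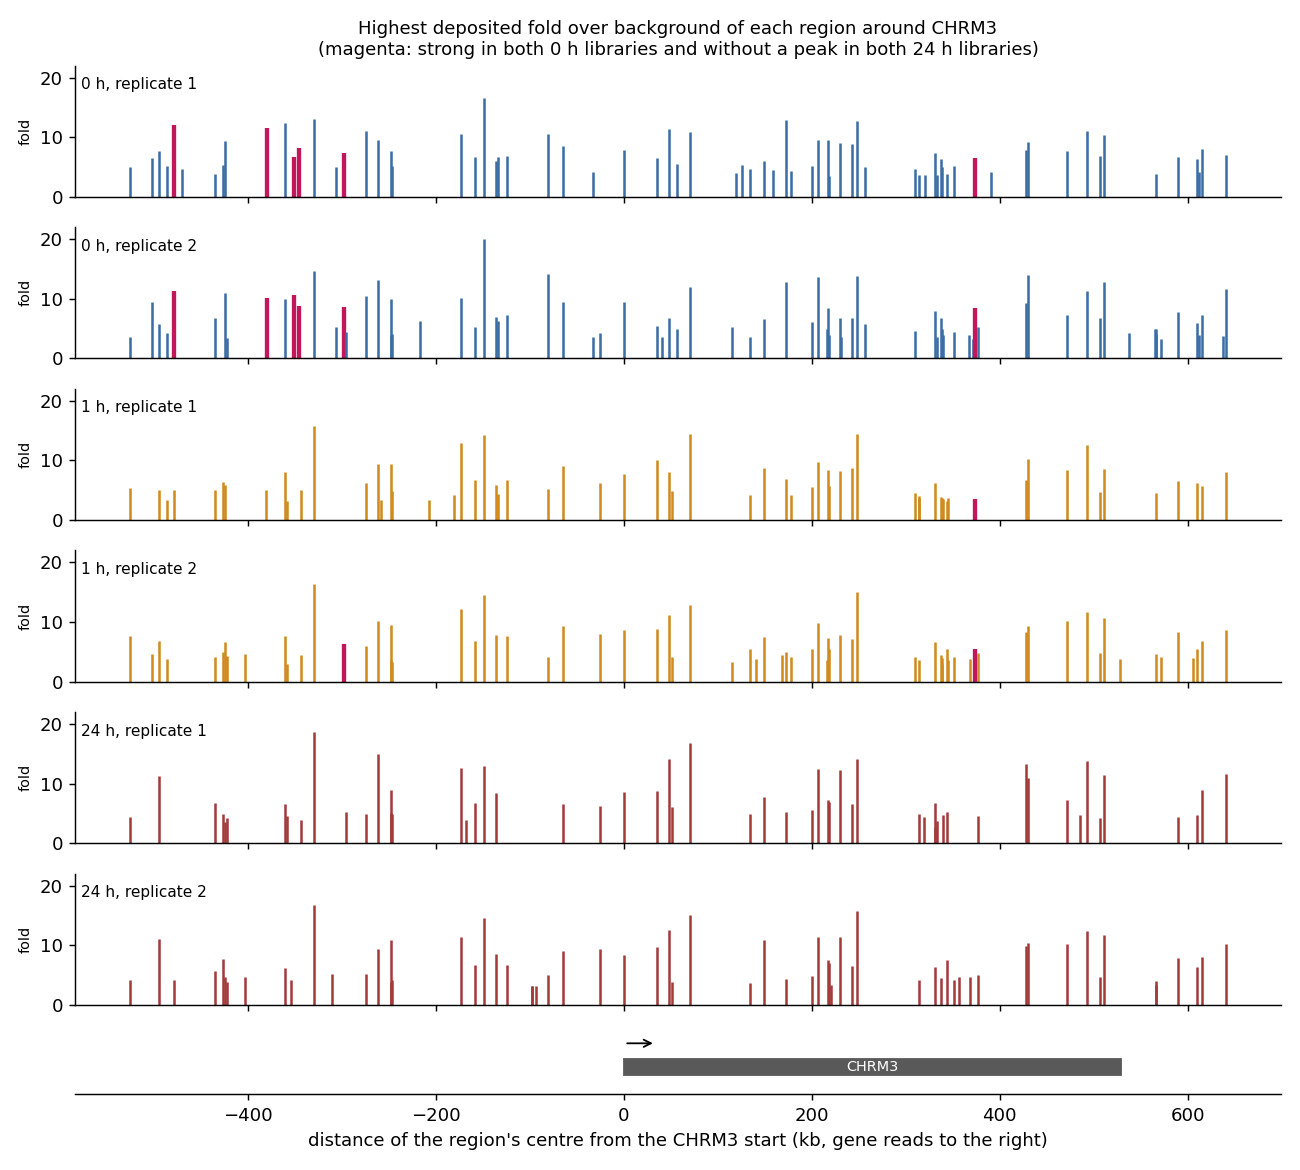
The 119 regions of the locus in each of the 6 libraries. The horizontal axis gives the distance of a region's centre from the CHRM3 start in kb, and the height of a line the region's highest fold over local background in that library; the bar is the gene. The 6 magenta regions were strong in both 0 h libraries and have no line at 24 h; 5 of them lie before the gene.

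Loss reached strong regions as well. Strong means a peak with a −log10 q of at least 10, and 34 regions of the locus were strong in both 0 h libraries. Of these 34, 4 (11.8%) had no peak in either 1 h library, with a share over the series of 1.51%, and 6 (17.6%) had none in either 24 h library, with a share over the series of 4.02%. A limit of 5 in place of 10 gave 8 and 12 such regions, and a limit of 20 gave 1 and 1. Neither the number of strong regions nor the share over the series is given for these limits. Most strong regions stayed: 26 of the 34 had a peak in all 4 later libraries, and 18 were strong in all 6. For these counts too, no share over the series was worked out. No region of the locus without a peak at 0 h was strong in both libraries of a later time. The regions strong in both libraries numbered 26 at 1 h and 24 at 24 h. The series held such gains in 0.0338% and 0.748% of regions.

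The 4 strong regions lost by 1 h lie before CHRM3, within 133.5 kb of each other. The first of them, 1:239071481-239072197, lies 478.0 kb before the gene's start and had the highest 0 h folds of the 4, 12 and 11.3. Its summit pileups at 0 h were 44 and 25 fragments, and the summits of the libraries were 61 bp apart. None of the 4 later libraries had a peak there. A separate, weaker peak lies 189 bp before it, at 1:239070762-239071291, with a fold of 4.39 in 0h replicate 2, 5 in 1h replicate 1 and 4.09 in 24h replicate 2. That neighbour was picked after its values were seen, and the other 3 libraries had no peak there.

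The next, 1:239170329-239170816, had folds of 11.6 and 10.2 at 0 h and no later peak. Its pileups were 32 and 20 fragments, with summits 25 bp apart. A weak neighbour 513 bp before it, at 1:239169580-239169815, had a fold of 3.95 in 0h replicate 1 and 5 in 1h replicate 1, and no peak in the other 4 libraries. The region 1:239198448-239199309 differed most between the 0 h libraries, with folds of 6.75 and 10.7 and summits 9 bp apart. At 1:239204444-239205019 the 0 h libraries had folds of 8.25 and 8.74, with summits 4 bp apart. For these last 2 regions no later library had a peak, and the nearest later peak of any library lay 1.9 kb away.

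The stretch that holds these 4 regions was not emptied. It has 14 regions in all, 7 of them in both 0 h libraries and 3 in all 6. Of these 3, 1:239125147-239125731 went from folds of 9.31 and 11 at 0 h to 3.52 and 4.63 at 24 h. At 1:239189281-239190117 the folds went from 12.4 and 9.9 to 6.58 and 6.19. At 1:239115090-239115416 they were 3.82 and 6.79, then 6.74 and 5.62, which overlapped. About 15 kb past the last of the 4, the region 1:239219985-239220887 had folds of 13.1 and 14.7 at 0 h, 15.8 and 16.3 at 1 h, then 18.7 and 16.7 at 24 h. All 4 later values lay above both 0 h values.

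The other 2 strong regions were lost only by 24 h. At 1:239252100-239252657, 297.5 kb before the gene, the folds were 7.39 and 8.54 at 0 h. At 1 h, replicate 1 had no peak there and replicate 2 a fold of 6.31, and neither 24 h library had a peak. The only strong lost region inside CHRM3, 1:239923760-239924359, lies 374.2 kb past the gene's start. Its folds were 6.51 and 8.37 at 0 h, 3.57 and 5.39 at 1 h, with no peak at 24 h, so the 1 h values lay below both 0 h values.

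**Figure D2:**
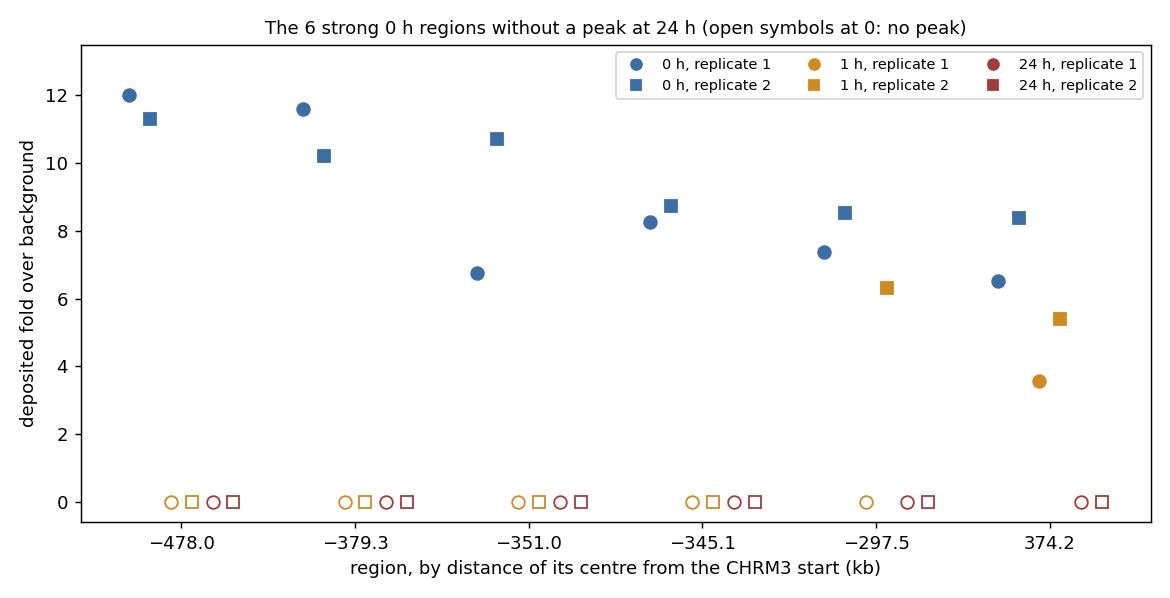
Deposited fold over local background of the 6 strong 0 h regions without a peak at 24 h, placed by distance from the CHRM3 start (kb), one symbol per library. Open symbols at 0 stand for no peak, not for a measured value; at 1 h the 4 regions on the left have no peak, the next one a peak in 1 library and the last one in both.

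What the absence of a peak leaves unmeasured can be bounded only loosely. Relative to the genome-wide background, taken as the most frequent background pileup of a list, the first lost region stood at 27.2 and 27.3 times in the 0 h libraries. The lowest peak of any list stood at 4.3 to 5.6 times that background. A region without a peak may thus still hold signal up to about this height, and more where the local background is raised.

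The other 10 regions lost at 24 h had folds of 3.65 to 9.4 at 0 h. The 5 with the highest mean fold were examined singly. At 1:239047399-239047885 the folds were 6.49 and 9.4 at 0 h, with a peak of fold 4.62 in 1h replicate 2 alone at 1 h. At 1:239416361-239416752 they were 6.61 and 6.34 at 0 h, with a fold of 4.32 in 1h replicate 1 alone. The remaining 3 had no later peak in any library. They were 1:239606278-239606683 (folds of 5.47 and 4.95 at 0 h), 1:239806392-239806808 (4.96 and 5.74), and 1:239243240-239243847 (4.96 and 5.22). A region that missed the definition by 1 peak, picked after its values were seen, lies 79.9 kb before the gene at 1:239469695-239470190. Its folds were 10.6 and 14.1 at 0 h, 5.11 and 4.2 at 1 h, and 5.07 in 24h replicate 2, with no peak in 24h replicate 1.

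The start of CHRM3 stayed open. The region there, 1:239549286-239551305, was the widest of the locus at 2020 bp. Its folds were 7.79 and 9.44 at 0 h, 7.77 and 8.71 at 1 h, then 8.58 and 8.41 at 24 h, so the times overlapped. Summit pileups were 82.8 and 112.6 times the genome-wide background at 0 h, 89.3 and 99.3 at 1 h, then 103.1 and 98.1 at 24 h, again overlapping. Its moderate fold goes with a raised local background, which was 10.08 to 11.19 times the genome-wide one over the 6 libraries. At the gene's other end, the nearest region, 1:240078241-240078465, had a peak in 1h replicate 2 alone, with a fold of 3.71.

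Inside the gene, summit pileup and local background fell together in a group of regions. This stretch of 8.6 kb, 1:239880477-239889052, starts 330.6 kb past the gene's start and holds 6 regions. It was picked after its values were seen, as the part of the gene away from the start where the local background in both 0 h libraries was at least 4 times the genome-wide one. A choice by high 0 h values favours lower values later, so the fall is given as a description only. Peaks covered 2553 and 2403 bp of it at 0 h. The covered length was 2070 and 1969 bp at 1 h, and at 24 h 1230 and 1312 bp, with no overlap between the times.

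In its leading region, 1:239880477-239881444, the summit pileup stood at 60.5 and 66.7 times the genome-wide background at 0 h. It was 39.3 and 41.3 at 1 h and 33.4 in both libraries at 24 h. The local background around it moved from 7.75 and 7.45 times at 0 h to 5.74 and 5.63 at 1 h, then 4.22 and 4.43 at 24 h. Because the fold divides one by the other, it changed less, with 7.3 and 7.93 at 0 h, 6.2 and 6.62 at 1 h, then 6.68 and 6.29 at 24 h. In all 3 measures both 24 h values lay below both 0 h values. Local background may include tags of these same peaks, which was not checked, so its fall is not read as a separate observation.

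The other regions of the stretch differed in which libraries held them. At 1:239886980-239887890 the summit pileup was 47.6 and 49.2 times the genome-wide background at 0 h, 19.3 and 22.5 at 1 h, and 17.7 in 24h replicate 2, with no peak in 24h replicate 1. At 1:239888727-239889052 it was 28.4 in both 0 h libraries, 11.4 and 16.0 at 1 h, and there was no peak at 24 h. At 1:239882512-239882960 it was 37.1 and 36.1 at 0 h and 18.6 in 24h replicate 1, the only later library with a peak. In each of these 3 regions every later summit pileup lay below both 0 h values. By fold this held at 1:239886980-239887890 and 1:239888727-239889052. At 1:239882512-239882960 the fold was 3.58 and 3.56 at 0 h and 3.63 in 24h replicate 1, so it did not fall. The remaining 2 regions had no peak in 0h replicate 1. At 1:239888142-239888410 the fold was 2.91 in 0h replicate 2, then 3.65 and 2.91 at 1 h, with no peak at 24 h. At 1:239881471-239881643 it was 2.74 in 24h replicate 1, the only library with a peak. Counting the leading region, the stretch had 4 and 5 peaks at 0 h, 4 and 4 at 1 h, then 3 and 2 at 24 h, so the peak counts of 0 h and 1 h overlapped.

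**Figure D3:**
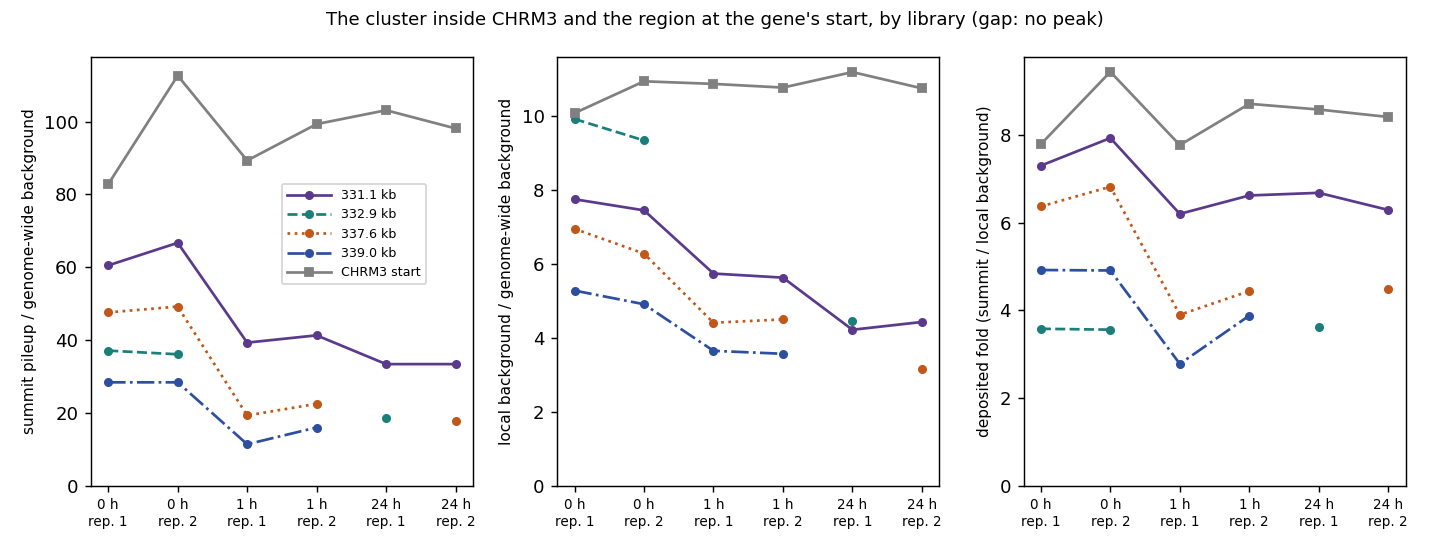
The 4 regions of the stretch inside CHRM3 that have a peak in both 0 h libraries (named by their distance from the CHRM3 start in kb), and the region at the gene's start in grey, for the 6 libraries. Left and middle, summit pileup and local background, each relative to the library's genome-wide background; right, the deposited fold. Gaps are libraries without a peak. Pileup and local background were highest at 0 h in the 4 coloured regions, and the grey line shows no such order. The stretch was chosen by its high local background at 0 h, which favours this order. Local background may include tags of the same peaks, so the left and middle panels are not read as separate observations.

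Among the 40 regions with a peak in all 6 libraries, changes went both ways. The fold of each region was ranked within each library among the 72695 regions of the series that have a peak in all 6 libraries and given as a percentile, so that every library is read on the same regions. At 24 h, 8 of 40 regions (20%) had both percentiles below both 0 h percentiles, and the share over the series was 22.1%. In the other direction 13 of 40 (32.5%) had both 24 h percentiles above both at 0 h, and the share over the series was 25.9%. At 1 h, 7 of 40 (17.5%) were lower and 12 of 40 (30%) higher, and the shares over the series were 20.5% and 22.5%. Leaving out 0h replicate 1 gave 13 lower and 20 higher regions at 24 h, and leaving out 0h replicate 2 gave 12 and 20. Fewer libraries then had to agree, which favours higher counts. The median change from 0 h to 24 h was 4.5 percentile points, with 0.40 over the series. The median percentile of the 40 regions was 49.9 and 43.6 in the libraries of 0 h, 53.0 and 47.1 in those of 1 h, and 50.5 and 56.6 in those of 24 h. Both 24 h medians lay above both 0 h medians, and the 1 h medians overlapped those of 0 h. For a single region the libraries of one time differed more, with a median gap between replicates of 11.2 points at 0 h, 8.1 at 1 h and 6.8 at 24 h.

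Ranked by summit pileup in place of fold, a measure added after seeing the data, 10 of 40 regions (25%) were lower at 24 h and 14 of 40 (35%) higher. The shares over the series were 24.5% and 25.1%.

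The deepest fall was inside CHRM3. The region 1:239721785-239722658, 172.4 kb past the gene's start, had folds of 12.8 and 12.8 at 0 h, 6.86 and 4.97 at 1 h, then 5.3 and 4.31 at 24 h. Its percentile fell by 73.3 points, and its summit pileup went from 35.8 and 44.8 times the genome-wide background at 0 h to 9.3 and 8.4 at 24 h. Both 1 h values already lay below both 0 h values.

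The next 3 falls lie before the gene. At 1:239125147-239125731 the folds were 9.31 and 11 at 0 h, 5.85 and 6.56 at 1 h, then 3.52 and 4.63 at 24 h, and the percentile fell by 60.8 points. At 1:239275422-239275828 they were 11.1 and 10.4, then 6.25 and 5.89, then 4.81 and 5.11, a percentile that fell by 58.6 points. In both regions the times did not overlap. The region 1:239189281-239190117 had folds of 12.4 and 9.9 at 0 h, 7.97 and 7.68 at 1 h, then 6.58 and 6.19 at 24 h, and its percentile fell by 42.7 points. The fifth, 1:240056012-240056973 near the gene's end, had folds of 6.76 and 6.76 at 0 h, 4.73 and 4.72 at 1 h, then 4.18 and 4.68 at 24 h. Its percentile fell by 23.3 points. In each of these 5 regions both 1 h folds lay below both 0 h folds. The 5 were chosen partly for high 0 h values, which favours lower values at 1 h as well.

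The region with the highest 0 h fold of the locus, 1:239401100-239401700, also moved down. Its folds were 16.6 and 20 at 0 h, 14.2 and 14.6 at 1 h, then 12.9 and 14.5 at 24 h. It lies 148.5 kb before the gene. It kept a high place, with 24 h percentiles of 87.9 and 93.5 after 98.4 and 99.3 at 0 h.

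Of the 5 largest rises, 4 lie inside CHRM3. The exception, 1:239055864-239056290, had folds of 7.64 and 5.74 at 0 h, 5 and 6.73 at 1 h, then 11.3 and 11 at 24 h, a rise of 45.6 percentile points that was absent at 1 h. At 1:239585029-239585519, 35.4 kb past the gene's start, the folds were 6.44 and 5.5 at 0 h, 10 and 8.85 at 1 h, then 8.72 and 9.73 at 24 h. Here the 1 h values already stood above both 0 h values. The region 1:239767722-239768065 had folds of 3.55 and 3.98 at 0 h, 5.78 and 5.5 at 1 h, then 6.98 and 7.04 at 24 h, which are apart at each step. The remaining 2 were 1:239779773-239780523, with 8.95 and 6.72 at 0 h, 8.15 and 7.88 at 1 h, then 12.2 and 11.4 at 24 h, and 1:239699494-239700128, with 5.96 and 6.65, 8.74 and 7.51, and 7.74 and 10.8. Their rises were 37.9 and 34.7 percentile points, and in the last of them the 1 h and 24 h values overlapped. The 5 rises were chosen partly for low 0 h values, which favours higher values at 1 h as well.

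Among regions with a peak in all 6 libraries, the 5 of highest mean 0 h fold included 1:239219985-239220887 and 1:239798274-239799015, which moved up. The latter lies 248.8 kb past the gene's start and had folds of 12.7 and 13.8 at 0 h, 14.5 and 15 at 1 h, then 14.2 and 15.8 at 24 h. The former rose further by summit pileup, from 37.7 and 48.1 times the genome-wide background at 0 h to 61.4 and 66.7 at 1 h, then 104.0 and 95.0 at 24 h, with no overlap between times. The last of the 5, 1:239756171-239757226, had folds of 9.59 and 13.7 at 0 h, 9.73 and 9.78 at 1 h, then 12.5 and 11.4 at 24 h, and the times overlapped. Its mean 0 h fold of 11.7 was below the 12.3 of 1:239469695-239470190, which lacked a peak in 24h replicate 1 and was thus left out.

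**Figure D4:**
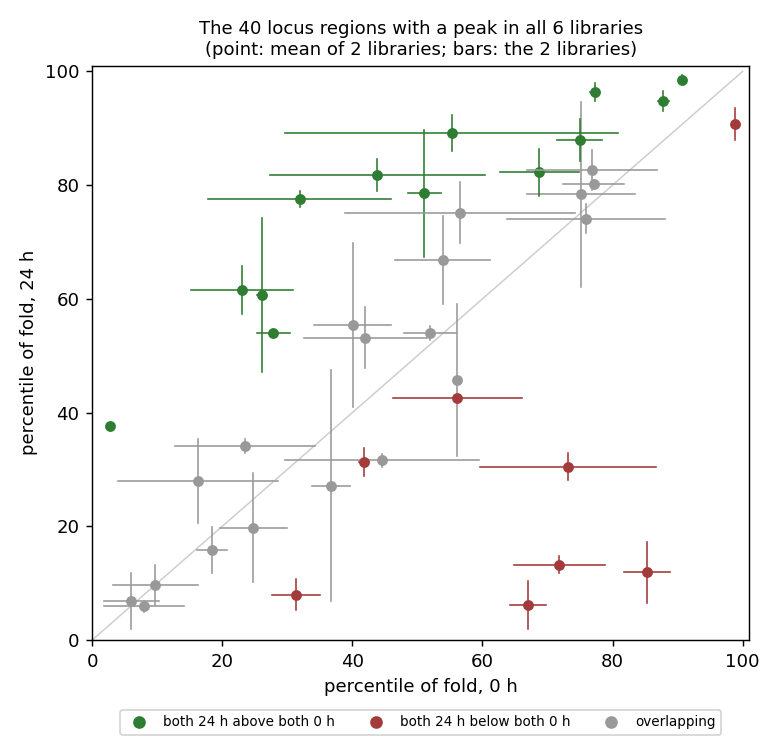
Percentile of the fold at 0 h (horizontal) and 24 h (vertical) for the 40 regions of the locus with a peak in all 6 libraries. Points are means of 2 libraries, bars join the 2 libraries, and the grey line marks equal percentiles. The 13 green regions have both 24 h values above both 0 h values and the 8 red ones both below.

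Widths gave a similar mixture. Relative to the library's median width over the same set, 7 of the 40 regions (17.5%) were narrower in both 24 h libraries than in both 0 h libraries, and the share over the series was 16.8%. In the other direction 11 of 40 (27.5%) were wider, and the share over the series was 22.6%. The narrower count was 14 without 0h replicate 1, 12 without 0h replicate 2, 11 without 24h replicate 1 and 13 without 24h replicate 2. Again, fewer libraries had to agree in these counts, which favours higher ones. The region of deepest fall, 1:239721785-239722658, was among the narrower ones, with peak widths in bp of 749 and 711 at 0 h, 874 and 773 at 1 h, then 507 and 136 at 24 h.

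By the main definition, gains numbered fewer than losses. Between 0 h and 1 h, 5 of the 58 regions in both 1 h libraries (8.62%) had no peak at 0 h, with a share over the series of 3.93% and folds at 1 h of 3 to 4.99. At 24 h, 1 of 47 regions (2.13%) was gained, and the share over the series was 6.54%. That region, 1:239601627-239602040, lies 52.0 kb past the CHRM3 start and had folds of 4.9 and 4.08 at 1 h, then 6.1 and 3.89 at 24 h. Its −log10 q was 12.2 in 24h replicate 1 and 4.36 in 24h replicate 2, so only the former reached the limit for strong. The counts of gains rose with each library left out, a direction that the rule favours, since fewer libraries then had to meet it. Without 0h replicate 1, 0h replicate 2, 1h replicate 1 or 1h replicate 2, gains at 1 h numbered 8, 8, 11 and 8. Without 0h replicate 1, 0h replicate 2, 24h replicate 1 or 24h replicate 2, gains at 24 h numbered 3, 5, 10 and 8.

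Between 1 h and 24 h, 8 of the 58 regions (13.8%) were lost and 0 of 47 gained, with shares over the series of 6.42% and 3.85%. The 8 had folds of 2.78 to 5.39 at 1 h, and 4 of them were also held by both 0 h libraries. The losses numbered 17 without 1h replicate 1 and 13 without 1h replicate 2. The gains numbered 3 without 1h replicate 2, 8 without 24h replicate 1 and 7 without 24h replicate 2. Here too, fewer libraries had to meet the rule.

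The regions were also counted by their place relative to the gene. Before CHRM3 (549.9 kb), 10 of the 27 regions in both 0 h libraries were lost at 24 h, and 5 of its 15 strong regions. Inside the gene (528.9 kb), 5 of 29 regions and 1 of 15 strong regions were lost, and past its end (121.2 kb) 1 of 6 regions and 0 of 4 strong ones. At 1 h, 6 of the 27 regions before the gene were lost, 3 of the 29 inside it and 2 of the 6 past its end. The order of these shares thus differed between the times, with the highest past the gene at 1 h and before it at 24 h. The share past the gene rests on 2 of 6 regions. Of strong regions, 4 of 15 before the gene were lost at 1 h, 0 of 15 inside it and 0 of 4 past it. Over the series, the shares of all lost regions were 7.48% at 1 h and 13.1% at 24 h. Of the 40 regions in all 6 libraries, 15 lie before the gene, with 4 lower and 4 higher at 24 h, and 21 inside it, with 4 lower and 9 higher. The 4 past the gene's end were neither. The difference between these parts was not tested.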

How the data were processed

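Each of the 6 libraries had 1 deposited narrowPeak list, not pooled over replicates. The tools named, per the submitters' processing notes, are FastQC, fastp, Bowtie2 and MACS2, and the build is hg19. Versions, read shifting and duplicate removal are not given in the sources used here. Each peak's deposited values are a fold (a ratio), a −log10 p, a −log10 q and a score, as the authors left them. Pileups were recovered from fold and −log10 p with MACS2's usual formulas (pseudocount 1, Poisson p), and whole numbers matched within 0.001 for 100.0% of peaks. Relative depth is the most frequent background pileup over the shortest peak. Folds were compared between libraries as deposited, without correction for depth, and also as percentiles over one set of regions. Python 3.11.15, numpy 2.4.6 and scipy 1.17.1 were used, and the calculation was tested on simulated lists.

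The window, its definitions and the lists of regions to be named were chosen with earlier results of these data known. Named were the strong lost or gained regions, the 5 highest 0 h folds among regions in all 6 libraries, those at the gene's start and end, the 5 largest falls and rises in percentile, the widest, and up to 5 further lost and gained ones. Motif searches in peaks and marker checks were planned and not run, since no hg19 sequence or annotation was used. Alternatives covered the −log10 q limits, list length, overlap, summit windows, the ranking measure and each library left out.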

Additional observations from a re-analysis of the deposited data

How the results depend on the processing

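The strong losses stayed at 4 and 6 regions in 500 bp summit windows, and moved with the limit for strong: 8 at 1 h and 12 at 24 h from a −log10 q of 5, 1 and 1 from 20. Losses over all peaks stayed within 1.5 times their counts of 11 and 16 in these windows, in lists of one length and at −log10 q limits of 5 and 10. With 50% coverage of a region required for presence, losses at 1 h numbered 6. Losses from 1 h to 24 h numbered 3 at a limit of 5, 2 at 10, 2 in lists of one length and 5 in summit windows. Gains at 1 h numbered 3 at 5, 1 at 10, 3 in lists of one length and 8 with 50% coverage. Gains at 24 h numbered 3, 2, 3 and 4 in the same order, and from 1 h to 24 h 1 at 10, 1 in lists of one length and 2 with 50% coverage. At a limit of 10, 3 regions were lower, 7 higher and 4 narrower. Ranking by −log10 q gave 10 lower and 14 higher.

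With 1 library left out, counts ranged as follows: losses 12 to 20 (0 h to 1 h), 17 to 28 (0 h to 24 h) and 10 to 17 (1 h to 24 h); gains 8 to 11, 3 to 10 and 0 to 8; strong losses 4 to 5 and 6 to 8; lower 10 to 13, higher 17 to 20 and narrower 11 to 14. No paired analysis was possible because these counts come from no test. Summit windows have one width and gave no count of narrower regions. Peak presence depends on depth, so a lost region may keep signal below a list's limit.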
